A study of Homo sapiens with 6 samples.

Results

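The genes described here are 10 factors known from pluripotent stem cells and early germ cells: POU5F1 (OCT4), NANOG, SOX2, KLF4, SALL4, LIN28A, LIN28B, UTF1, ZFP42 (REX1) and PRDM14. They were taken by gene symbol, matched to the Ensembl identifiers of the deposited table, and make up 10 of its 58395 genes. All 10 were found. The samples are 6 RNA sequencing libraries labelled as M14, a human melanoma cell line, cultured as melanospheres, which are clusters of cells growing in suspension. The spheres had been dissociated, stained for the surface antigen CD20 and sorted into 3 CD20-positive and 3 CD20-negative libraries, and no treatment or genetic change separates the groups. The sort gate is the only difference between the groups that the labels give, and all libraries come from 1 cell line. The labels do not state the handling, RNA quality or library batch of each fraction. Whether replicates 1 to 3 are independent cultures is not stated, and the p-values below reflect library-to-library spread that may be technical.

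POU5F1, SOX2 and NANOG form the core transcription circuit that keeps embryonic stem cells undifferentiated, and KLF4 joins POU5F1 and SOX2 in the classic mixture that reprograms somatic cells. SALL4 is a zinc-finger repressor of embryonic and germ cells that is silent in most adult tissues and is expressed again in some tumours. LIN28A and LIN28B are RNA-binding proteins that bind the loop of let-7 precursors and block their processing, and let-7 in turn represses both LIN28 transcripts. UTF1, ZFP42 and PRDM14 are used as markers of the undifferentiated state.

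The sequences that frame this circuit are shown first, since the levels reported further on concern genes that read or carry them. The promoter window of NANOG (RefSeq, GRCh38.p14, plus strand) is given because it holds an element of the kind that POU5F1 and SOX2 occupy together as a pair, and that of KLF4 (minus strand) because it is one of the members with transcripts. Each window runs from 250 bases before to 50 bases after the start annotated in RefSeq. Both windows lie inside the GENCODE gene spans used for the levels. For KLF4, no GENCODE transcript of the gene held the run of bases just after that start. The capitals mark matches on either strand to TTTGCAT (part of the octamer motif of POU factors), ACAATG (a SOX motif) and CCGCCC (a GC box, the motif of SP and KLF factors).
NANOG chr12:7789152-7789451: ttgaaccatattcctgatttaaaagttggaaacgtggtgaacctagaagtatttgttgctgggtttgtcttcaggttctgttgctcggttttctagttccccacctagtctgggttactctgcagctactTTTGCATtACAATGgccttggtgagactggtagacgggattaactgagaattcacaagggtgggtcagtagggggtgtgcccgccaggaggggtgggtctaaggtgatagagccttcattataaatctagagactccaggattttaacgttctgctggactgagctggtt
KLF4 chr9:107489720-107490019: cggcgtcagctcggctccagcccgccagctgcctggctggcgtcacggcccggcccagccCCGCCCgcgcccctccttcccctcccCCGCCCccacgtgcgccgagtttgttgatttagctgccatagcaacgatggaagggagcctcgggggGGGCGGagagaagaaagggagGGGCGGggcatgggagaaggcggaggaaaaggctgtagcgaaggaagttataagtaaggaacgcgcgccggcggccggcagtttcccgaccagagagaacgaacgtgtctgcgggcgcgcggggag

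In the NANOG window the octamer part and the SOX motif stand 1 base apart. TTTGCAT was present in 4.46%, ACAATG in 10.8% and the joined form, TTTGCAT and ACAATG separated by 1 base of any kind, in 0.00854% (3) of the 35116 promoter windows of the table. The KLF4 window held 4 matches to CCGCCC, which 45% of all windows carry at least once. It was 69.0% GC with 33 CpG dinucleotides, against 46.7% and 5 in the NANOG window. Windows were found for 6 of the 10 genes. Among members with 0 or 1 fragments, GC was 46.7% for NANOG, 63.3% for SOX2, 69.3% for ZFP42 and 71.7% for UTF1. The windows of LIN28B, which had 3 fragments, were 73.0% and 39.0% GC.

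The let-7 family is printed because LIN28A and LIN28B act on it. Its 9 distinct mature 5p forms share 1 seed (bases 2 to 8, in capitals).
hsa-let-7a-5p: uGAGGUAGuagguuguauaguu
hsa-let-7b-5p: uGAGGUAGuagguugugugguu
hsa-let-7c-5p: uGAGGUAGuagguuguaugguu
hsa-let-7d-5p: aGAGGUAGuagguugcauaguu
hsa-let-7e-5p: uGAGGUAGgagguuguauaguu
hsa-let-7f-5p: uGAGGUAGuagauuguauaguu
hsa-let-7g-5p: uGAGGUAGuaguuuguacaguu
hsa-let-7i-5p: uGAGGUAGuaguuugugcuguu
hsa-miR-98-5p: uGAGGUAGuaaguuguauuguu
The precursor of let-7g (chr3:52268278-52268361, minus strand, GRCh38.p14) shows, in capitals, the GGAG element of the loop that LIN28 proteins recognise. GGAG lay between the arms in 9 of the 12 hairpins of the family.
MIRLET7G: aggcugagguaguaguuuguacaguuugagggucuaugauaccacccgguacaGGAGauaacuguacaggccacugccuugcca

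Matches to the let-7 seed (CTACCTC, transcript strand, in capitals) were looked for in the annotated 3′ ends downstream of the coding part (GENCODE release 29, GRCh38). They were found in 3 of the 10 members: 4 in LIN28B, 1 in LIN28A and 1 in SALL4. Of 18953 protein-coding genes 10.3% held at least 1. A match of letters is not evidence of a working site, and mature let-7 is not measured by these libraries of polyadenylated RNA. The match in SALL4, that in LIN28A and the first of LIN28B are shown with their flanks.
SALL4 chr20:51782923-51782945, minus strand: aaagctttaatttatCTACCTCa
LIN28A chr1:26427348-26427370, plus strand: gcacagcctattgaaCTACCTCa
LIN28B chr6:105078812-105078834, plus strand: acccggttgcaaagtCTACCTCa

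Levels are given in FPKM, fragments per kilobase of exon scaled by the authors to a library size of their own, so that genes of different length can be compared. Each value divided by the worth of 1 fragment gave whole fragments, which are printed where the level is low. The libraries held 15651172 to 17915936 recovered fragments. The gene of CD20, MS4A1, ranged from 0.966 to 1.28 FPKM in the positive fraction and from 0.225 to 0.403 FPKM in the negative one. Mitochondrially encoded genes took 11.9 to 20.6% of the fragments in CD20-positive and 4.25 to 5.73% in CD20-negative libraries, and cytosolic ribosomal protein genes 2.60 to 4.18% against 6.59 to 6.85%. The labelled cell type was not borne out by most of its markers, 6 of 8 having a mean under 1 FPKM, so what is reported holds for the cells as sequenced and their identity as melanoma was not established here. PMEL, a melanosome protein, had a mean of 20.5 FPKM and MITF, the melanocyte master regulator, 2.12 FPKM, whereas SOX10, a lineage-defining factor, did not exceed 0.0717 FPKM in any library and the antigen MLANA did not exceed 0.262 FPKM. The epithelial keratins KRT8 and KRT18 had means of 212 and 187 FPKM. Of the other epithelial markers listed, KRT17 and EPCAM had means of 34.1 and 3.77 FPKM. CDH1, KRT5 and KRT14 had means of 0.0695, 0.0734 and 0.00456 FPKM, so these markers did not go 1 way either.

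Of the 10 genes, SALL4 and KLF4 were present in both fractions, present meaning at least 1 FPKM in each of the 3 libraries of a fraction. None of the 10 was present in 1 fraction only. The other 8 had between 0 and 5 fragments in all 6 libraries together. NANOG, SOX2, UTF1 and PRDM14 had 0 fragments in every library. The same presence calls were obtained at 0.1 FPKM. For comparison, 50.3% of the 19892 protein-coding genes were present in both fractions, and 20.5% had 0 fragments in all libraries.

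**Figure D1:**
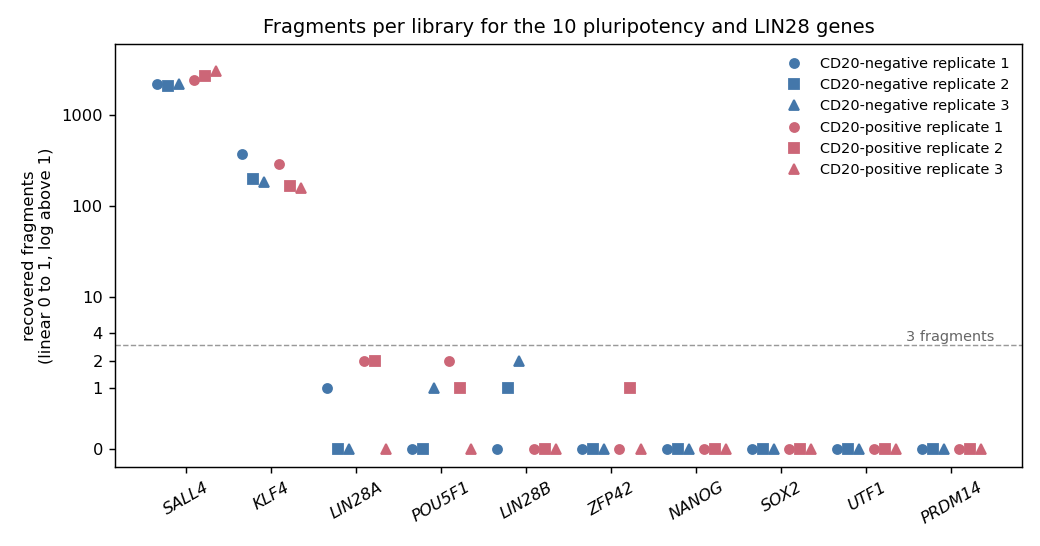
Recovered fragments (y axis, linear from 0 to 1 and logarithmic above) of the 10 genes in each library, with blue for CD20-negative, red for CD20-positive and the marker shape for the replicate number. SALL4 and KLF4 stand at 158 fragments or more in each library, and each of the other 8 genes stays below the dashed line at 3 fragments.

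The core factors were close to or at the limit of detection. NANOG, the homeobox factor of the circuit (ENSG00000111704, GRCh38 chromosome 12, 7787794 to 7799141), was listed at 0 FPKM in the 3 CD20-negative and the 3 CD20-positive libraries. A count of 0 allows up to 3 fragments, which for NANOG corresponds to 0.0281 to 0.0368 FPKM depending on the library. SOX2, the HMG-box partner of POU5F1 (ENSG00000181449, chromosome 3, 181711924 to 181714436), was also at 0 in all 6 libraries, with a limit of 0.0603 to 0.0790 FPKM. These limits cover counting error only. SOX2-OT, the long noncoding gene whose intron contains SOX2, had 2 fragments over all libraries.

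POU5F1, the POU-domain factor of the circuit (ENSG00000204531, chromosome 6, 31164337 to 31180731, minus strand), had 0, 0 and 1 fragments in CD20-negative replicates 1, 2 and 3. In CD20-positive replicates 1, 2 and 3 it had 2, 1 and 0 fragments. Its levels were at most 0.0457 FPKM, and the fractions overlapped. With 3 and 1 fragments in all, both fractions lay at or under the limit of 3 fragments, so no fold is given and no difference was detectable at this depth (exact permutation test on FPKM, two-sided, p = 0.4, 0.6 after Benjamini-Hochberg adjustment over the 6 members with any fragment). POU5F1 shares 248 exonic bases with TCF19 on the opposite strand, and whether the counting used strand is not given in the sources used here. TCF19, a gene of growing cells, averaged 0.292 ± 0.204 FPKM in the positive and 0.116 ± 0.0504 FPKM in the negative fraction (SD, n = 3), so even these few fragments cannot be assigned with certainty.

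Copies of the core factors are a known difficulty, because processed pseudogenes of POU5F1 and NANOG are transcribed in some cancers and share most of their sequence with the parent gene. The table held 29 copies, pseudogenes and antisense genes of the members by name, of which 20 had 0 fragments in all 6 libraries. The highest mean was that of POU5F1P6, 0.0732 FPKM from 7 fragments. POU5F1P4 had 6 fragments and POU5F1P5 had 4, against 4 for POU5F1 itself. NANOGP8, the retrogene copy of NANOG most often discussed in tumours, had 0 fragments. Reads that align equally well to a gene and its copies can be split or discarded in counting, so single values of these genes are uncertain.

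The LIN28 proteins had hardly any transcript in either fraction. LIN28A (ENSG00000131914, chromosome 1, 26410778 to 26429722) had 1, 0 and 0 fragments in CD20-negative and 2, 2 and 0 in CD20-positive replicates 1, 2 and 3. The ratio of summed fragments was 4.22 with a 95% counting interval of 0.418 to 208 (exact permutation test on FPKM, p = 0.4, adjusted p = 0.6). LIN28B, the paralogue that is more often re-expressed in tumours (ENSG00000187772, chromosome 6, 104936616 to 105083332), had 0, 1 and 2 fragments in CD20-negative and 0 in each CD20-positive library. Both fractions lay at or under 3 fragments, so no fold is given (exact permutation test, p = 0.4, adjusted p = 0.6). Its highest value in any library was 0.0168 FPKM. The antisense gene LIN28B-AS1, which shares 67 exonic bases with it, had 0 fragments.

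The 3 marker genes of the undifferentiated state were likewise not detected or nearly so. ZFP42, a zinc-finger gene (ENSG00000179059, chromosome 4, 187995771 to 188005050), had 1 fragment in CD20-positive replicate 2 and 0 in the other 5 libraries. UTF1, a chromatin-associated factor (ENSG00000171794, chromosome 10, 133230274 to 133231558), and PRDM14, a PR-domain regulator of germ cells (ENSG00000147596, chromosome 8, 70051651 to 70071693), had 0 in all 6. The limit set by 3 fragments was 0.131 to 0.172 FPKM for UTF1, whose exons span only 1157 bases, and 0.0621 to 0.0813 FPKM for PRDM14. UTF1 is thus the member for which absence is least tightly bounded.

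SALL4 was the member with the highest level, and all 3 positive libraries lay above all 3 negative ones. SALL4 (ENSG00000101115, chromosome 20, 51782331 to 51802520, minus strand, 5 annotated transcripts) measured 20.1, 20.4 and 19.0 FPKM in CD20-negative replicates 1, 2 and 3. In CD20-positive replicates 1, 2 and 3 it measured 27.8, 28.8 and 33.4 FPKM. The groups did not overlap, the gap between them being 7.40 FPKM, and the CD20-negative values lay close together. The means were 29.998 ± 2.98 in the positive and 19.8 ± 0.722 FPKM in the negative fraction (SD, n = 3), which is 1.51-fold. A two-sided exact permutation test gave p = 0.1 (0.6 adjusted over the 6 members tested), the smallest that 3 against 3 can give. These values rest on 2097 to 3046 fragments per library. Of the 13155 genes averaging 1 FPKM or more over the 6 libraries, 15% had groups that did not overlap, 8.87% with the positive fraction higher and 6.14% with it lower. SALL4 stood above 91.3% of protein-coding genes by mean FPKM, no other annotated gene overlaps it, and its pseudogenes had 0 fragments.

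Whether SALL4 passed a test across all genes depended on the use of the replicate numbers and on the libraries included. In a limma model of log2(FPKM + 1) across these 13155 genes, CD20-positive minus CD20-negative, its log2 change was 0.57 ± 0.14 (SE; 95% interval 0.25 to 0.89), and the limma adjusted p was 0.293. SALL4 was among the 9.2% of genes whose unadjusted p was under 0.05. That fit called 1 gene (0.0076% of those tested), the mitochondrial tRNA gene MT-TE, named here after its value was seen, and 0 of the 10 members. When same-numbered libraries were treated as pairs (the replicate block), the change was the same, and the adjusted p in limma was 0.0393. That call was lost in the block fits without replicate 2 (limma adjusted p = 0.137), without replicate 3 (0.478) and with each library scaled to its summed FPKM (0.757). Without the block, SALL4 was called only when replicate 1 was left out. The block fit called 767 genes (5.83%), 420 of them higher in CD20-positive cells (3.19%) and 347 lower (2.64%), 21.3% of genes had an unadjusted p under 0.05, and 2 of the 10 members were among the genes it tested. Within pairs of the same number the ratio was 1.38, 1.42 and 1.76, higher in 3 of 3.

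SALL4 also depended on how the libraries were scaled. When each library was scaled to its summed FPKM, which counts the mitochondrial transcripts, the SALL4 means were 26.2 and 24.3 FPKM, a 1.08-fold ratio with overlapping groups (log2 change 0.07, limma adjusted p = 0.799). The median of all genes tested moved from 0.00025 to -0.41 under that scaling. When the mitochondrially encoded genes were left out of the sum, the ratio was 1.64 and the groups did not overlap. Recovered depth counts mitochondrial fragments too. As summed fragments relative to that depth, the SALL4 ratio was 1.33 (95% counting interval 1.29 to 1.38, without the spread between libraries). In bulk samples a higher value can mean more cells with the transcript or more transcript per cell, and these cannot be told apart.

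**Figure D2:**
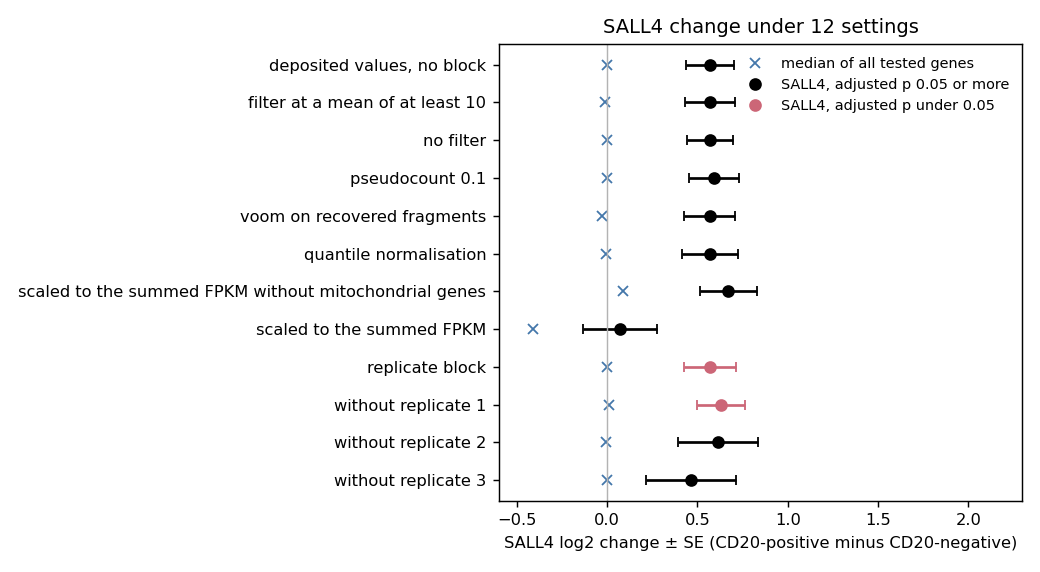
SALL4 log2 change of FPKM + 1 (x axis, points with SE bars, red where the adjusted p is under 0.05) under 12 settings, with crosses for the median of all genes tested. The change lies between 0.46 and 0.67 except under scaling to the summed FPKM, where it is 0.07 and the median of all genes is -0.41.

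KLF4, a Krüppel-like zinc-finger factor that is also expressed in epithelia and is induced by stress in many cell types, did not separate the fractions. KLF4 (ENSG00000136826, chromosome 9, 107484852 to 107490482, minus strand) measured 5.44, 3.07 and 2.50 FPKM in CD20-negative replicates 1, 2 and 3. In CD20-positive replicates 1, 2 and 3 it measured 5.21, 2.81 and 2.73 FPKM. The library of replicate 1 was the highest in both fractions, and the fractions overlapped over their whole range. The means were 3.58 ± 1.41 and 3.67 ± 1.56 FPKM (SD, n = 3; exact permutation test, p = 0.9). Its log2 change was -0.02 ± 0.29 (SE), with a 95% interval of -0.71 to 0.67 and a limma adjusted p of 0.992. With the replicate block the interval was -0.30 to 0.27 (adjusted p = 0.96), a fold between 0.810 and 1.21 on the deposited scale. Scaled to the summed FPKM, the log2 change was -0.43 (limma adjusted p = 0.249, 0.116 with the block), outside that interval. As summed fragments relative to recovered depth, the KLF4 ratio was 0.854 (95% counting interval 0.766 to 0.951, without the spread between libraries).

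The spread of KLF4 lay between replicate numbers and not between fractions. Both libraries of replicate 1 exceeded the other 4, which ranged from 2.50 to 3.07 FPKM. This pattern was common, since both replicate 1 libraries stood above the other 4 for 23.5% and below them for 20.8% of the 13155 genes. SALL4 did not follow it, as the replicate 1 libraries were neither both highest nor both lowest. The mean of SALL4 over the 6 libraries was 6.87 times that of KLF4, on the per-length scale.

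**Figure D3:**
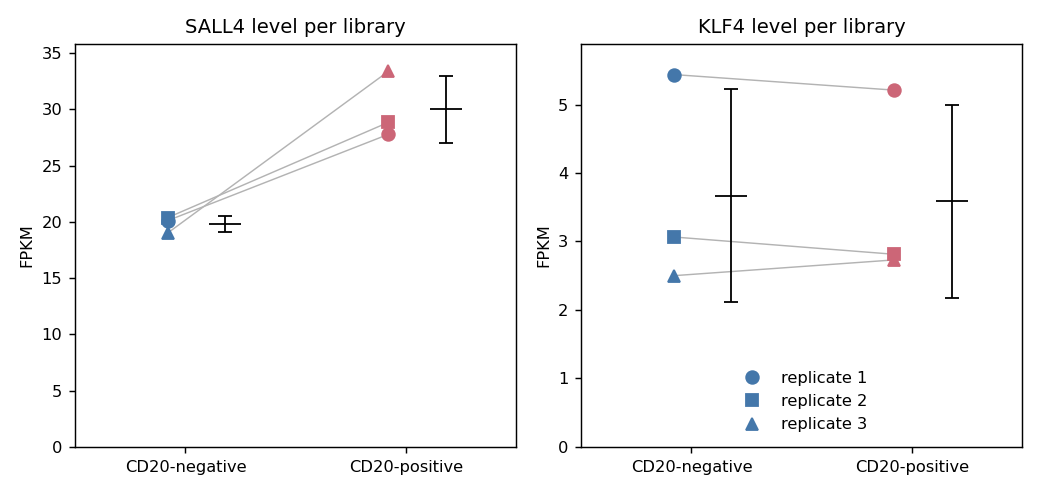
FPKM of SALL4 (left) and KLF4 (right) in each library, with lines joining the same replicate number and black bars for the mean ± SD of 3 libraries. SALL4 lies between 19.0 and 20.4 in CD20-negative and between 27.8 and 33.4 in CD20-positive libraries, whereas KLF4 is highest in replicate 1 of both fractions.

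The protein-coding genes with the pattern most like each of these members were ranked by Pearson's r of log2(FPKM + 1) over the 6 libraries, as a description. For SALL4 they were GRIN2D, an NMDA receptor subunit (r = 0.996), GANAB, a glucosidase of the endoplasmic reticulum (r = 0.992), and ITGA5, the fibronectin-receptor integrin chain (r = 0.991). For KLF4 they were UPP1, a uridine phosphorylase (r = 0.999), RTN4, a reticulon (r = 0.995), and TM2D2 (r = 0.994). With 6 points many genes lie this close: 115 of 10695 genes reached r = 0.95 with SALL4 and 239 with KLF4, and all share the same libraries.

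Markers of other cell types were measured beside SALL4. Germ cell markers, as a sum over 8 genes, were at 27.6 to 32.8 FPKM in the positive and 25.7 to 27.7 in the negative fraction, 2 of the 8 reached a mean of 1 FPKM, and DAZL, DPPA3 and MAGEA4 were at 0. Nearly all of that sum was TFAP2C, an AP-2 factor also found in epithelial cells, which measured 28.5 ± 2.11 and 24.8 ± 0.596 FPKM (SD, n = 3; limma adjusted p = 0.679, 0.473 with the replicate block). Fibroblast markers summed to 36.4 to 50.7 FPKM in the positive and 25.6 to 34.2 in the negative fraction over 6 genes, without overlap. Of these, 2 had a mean of 1 FPKM or more. Most of the sum was COL1A1, a collagen chain, at 37.4 ± 4.03 and 25.7 ± 1.58 FPKM (SD, n = 3). Its groups did not overlap, but it was not called (limma adjusted p = 0.357, 0.0625 with the replicate block). The other, PDGFRB, was called higher with the block (limma adjusted p = 0.0286, 0.812 without). Its replicate 1 library was the highest in both fractions, at 13.4 and 7.54 FPKM. Epithelial markers summed to 442 to 504 and 333 to 481 FPKM over 7 genes, 4 of them at 1 FPKM or more, and KRT17 was called higher with the block (limma adjusted p = 0.0184, 0.752 without). B lineage markers, which include MS4A1 itself, summed to 4.69 to 4.92 and 2.42 to 3.77 FPKM over 8 genes, without overlap, and the antigen receptor chain CD79A and the B cell factor PAX5 had means of 0.0825 and 0.0218 FPKM. Melanocytic markers summed to 17.4 to 35.7 and 11.1 to 21.4 FPKM over 8 genes; PMEL made most of it and was called higher with the replicate block (log2 change 0.75, limma adjusted p = 0.0117, 0.613 without). The part of these markers, and of the mitochondrial and ribosomal shares, in the SALL4 difference was not tested.

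Other genes of the pluripotency network were mostly silent too. Of 26 partners, 5 reached a mean of 1 FPKM and 7 had 0 fragments, among them TDGF1, FGF4 and L1TD1. None of the 5 was called in either limma fit, and their median log2 change was 0.06, beside 0.00025 over all genes. PODXL, a sialomucin that carries stem cell epitopes but is made by many epithelia, was the highest at 47.3 ± 8.02 FPKM in the positive and 44.9 ± 4.402 in the negative fraction (SD, n = 3). TBX3, a T-box repressor also known from melanoma, measured 33.8 ± 5.02 and 25.1 ± 4.82 FPKM (log2 change 0.42, limma adjusted p = 0.568, 0.1 with the replicate block). DNMT3B, the de novo DNA methyltransferase, measured 6.15, 7.91 and 8.05 FPKM in CD20-positive replicates 1, 2 and 3 and 5.01, 5.66 and 5.59 in CD20-negative ones. Its groups did not overlap, but it was not called (log2 change 0.38, limma adjusted p = 0.504, 0.117 with the block).

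DPPA2, a SAP-domain gene normally restricted to pluripotent and germ cells, was the exception among the stage-specific partners. It measured 7.54, 5.52 and 6.98 FPKM in CD20-negative and 8.57, 4.87 and 4.89 FPKM in CD20-positive replicates 1, 2 and 3. The fractions overlapped (log2 change -0.14, limma adjusted p = 0.885). Its 6 values rest on 917 fragments in all.

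The machinery around LIN28 was present although LIN28 itself was not. Of 24 genes of the LIN28 and let-7 pathway, 18 reached a mean of 1 FPKM, 0 were called without the block, and with the block 0 were higher and 1 was lower, beside 5.83% of all genes called with the block. Their median log2 change was -0.01. The microRNA processing factors DROSHA (15.1 ± 1.999 and 14.98 ± 1.18 FPKM in the positive and negative fractions, SD, n = 3) and TARBP2 (17.98 ± 4.76 and 17.6 ± 2.54 FPKM) had overlapping fractions. NRAS, a RAS gene known as a let-7 target, measured 15.6, 9.74 and 10.5 FPKM in CD20-negative and 11.3, 6.35 and 6.11 FPKM in CD20-positive replicates 1, 2 and 3. It was lower in 3 of 3 pairs (log2 change -0.55 ± 0.13 SE, limma adjusted p = 0.0345 with the replicate block, 0.588 without), while the groups overlapped. Without the block, NRAS was also called under scaling to the summed FPKM (-1.03, limma adjusted p = 0.0399). That scaling called 1331 of 13303 genes, 1304 of them lower, and the median log2 change of all genes was -0.41. Leaving out 1 library, without the block, gave -0.81 to -0.36 for NRAS. HMGA1, a chromatin architectural protein, had the highest level of the list, 157 ± 40.7 and 220 ± 30.5 FPKM, and was not called on the deposited scale (log2 change -0.50, limma adjusted p = 0.573, 0.226 with the block), but was under scaling to the summed FPKM (-1.02, 0.0244). CCND1, the G1 cyclin, measured 28.3 ± 16.95 and 29.01 ± 13.9 FPKM.

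Relatives of the members ranged from abundant to undetected. Of 34 family relatives 20 reached a mean of 1 FPKM, 9 had 0 fragments, including SALL1, SALL2 and SALL3, and 0 were called in either fit. Their median log2 change was -0.04. KLF16 was called under scaling to the summed FPKM (-0.69, limma adjusted p = 0.0467), where 1304 of the 1331 genes called were lower. KLF5, an epithelial Krüppel-like factor, measured 39.8 ± 12.8 and 39.6 ± 11.1 FPKM in CD20-positive and CD20-negative cells, well above KLF4. SOX4 measured 13.8 ± 1.51 and 14.1 ± 1.18 FPKM, KLF16 11.98 ± 1.98 and 13.9 ± 1.01 FPKM, and the zinc-finger factor YY1 24.3 ± 2.42 and 25.2 ± 1.86 FPKM. SALL4 was thus the single SALL gene with fragments among the 4 of the family.

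The chromatin complexes through which SALL4, PRDM14 and POU5F1 are known to act were expressed in both fractions. Of 18 such genes 17 reached a mean of 1 FPKM, 0 were called without the block, and 1 was called higher with it, beside 5.83% of all genes. Their median log2 change was 0.07. Among subunits of NuRD, the deacetylase complex that SALL4 recruits, RBBP7 measured 69.2 ± 4.68 and 68.4 ± 3.35 FPKM, MTA2 68.8 ± 5.95 and 60.3 ± 3.73 FPKM, and HDAC1 43.2 ± 1.90 and 40.0 ± 3.45 FPKM in CD20-positive and CD20-negative cells (SD, n = 3). The demethylase KDM1A measured 45.1 ± 2.88 and 47.2 ± 2.26 FPKM. EZH2, the histone methyltransferase of the Polycomb complex PRC2, measured 12.5, 27.0 and 33.2 FPKM in CD20-positive and 10.1, 15.4 and 17.1 FPKM in CD20-negative replicates 1, 2 and 3. It was higher in 3 of 3 pairs with overlapping groups (log2 change 0.65 ± 0.15 SE, limma adjusted p = 0.0317 with the replicate block, 0.637 without). Without the block, its change was 0.17 when scaled to the summed FPKM, 0.38 without CD20-positive replicate 3, 0.44 without CD20-negative replicate 1 and 1.053 without CD20-positive replicate 1.

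**Figure D4:**
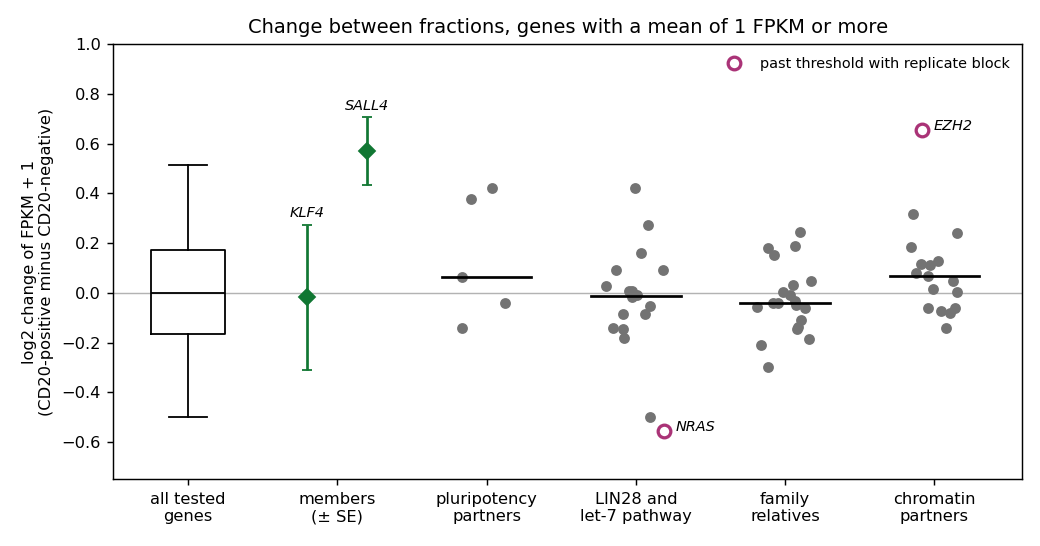
Log2 change of FPKM + 1, CD20-positive minus CD20-negative (y axis), for genes averaging 1 FPKM or more. The box gives the median and quartiles of all 13155 genes with whiskers from the 5th to the 95th percentile, diamonds give SALL4 and KLF4 with SE, points the genes of 4 lists with their medians as bars, and open circles the 2 list genes called with the replicate block. SALL4 at 0.57 lies above the upper whisker at 0.51, whereas the list medians lie between -0.04 and 0.07.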

How the data were processed

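Expression was deposited as a table of 58395 Ensembl genes by 6 libraries. Its header names no unit: the deposited values were taken as FPKM computed by the authors, because each value times the GENCODE release 29 exon length gave whole multiples of 1 step per library for 98.1 to 98.6% of low values (up to 20 fragments, tolerance 0.02). The submitters' processing notes list the tools HISAT2, DESeq2 and featureCounts 1.5.0 and the build GRCh38 (hg38), without settings. Of the identifiers, 58275 matched GENCODE.

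Fold changes were fitted with limma 3.58.1 (R 4.3.3; trend and robust prior) on log2(FPKM + 1) for genes averaging 1 FPKM or more, which understates changes of low genes, with Benjamini-Hochberg adjustment over all genes and a threshold of 0.05. The fit without the block was tested on simulated data with independent libraries. The simulation held no differences between replicate numbers, and the fit with the block was not simulated. Levels were compared with exact permutation tests. Depth was 15651172 to 17915936 fragments. The correlations of same-numbered libraries' deviations from their group means were 0.67, 0.24 and 0.51, all above 0.1. By that criterion the libraries count as paired, and the fit with the replicate block is given beside the one without. Swapped pairs of replicates 2 and 3 passed that criterion too. CD20-negative replicate 2 with CD20-positive replicate 3 gave 0.43, and CD20-positive replicate 2 with CD20-negative replicate 3 gave 0.40. Replicate 2 of each fraction thus correlated better with replicate 3 of the other than with its own number (0.24). The criterion does not settle how replicates 2 and 3 pair, and the calls with the block rest on the numbering.

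The members and gene lists were chosen with earlier results of these data known. Named list genes are the 4 highest by mean of each list, those past the threshold, and up to 4 past it with the block; DPPA4, TERT, IGF2BP1, the let-7 host genes, TRIM71, HMGA2 and the cell type markers named were added after their values were seen. Copies were matched by name. Sequences are from RefSeq (GRCh38.p14) and GENCODE.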

Additional observations from a re-analysis of the deposited data

How the results depend on the processing

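The settings that pair the block with another choice, and those that leave out both libraries of a replicate, were chosen after seeing the data; the others were planned. The count of 1 gene moved to 767 with the replicate block, 1331 (27 higher, 1304 lower) with scaling to the summed FPKM, 9 with quantile normalisation, and 0 with no filter (1612 at an unadjusted p under 0.05) and with limma-voom (1180). Leaving out libraries gave 0 to 1756 genes, with 321 when the CD20-positive library of replicate 1 was left out and 1756 when the whole of replicate 1 was. In the block fit it was 3871 with the summed FPKM, 933 without mitochondrial genes in the sum, 954 at a mean of at least 10 FPKM, 1540 with voom, 716 at a pseudocount of 0.1, and 2162, 1 and 337 without replicate 1, 2 and 3. For these shifts the cause was not tested.

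The count of members called, 0 without the block on all libraries, was 1 (SALL4) with the replicate block. It was also 1 with the block at a filter of 10 FPKM, with voom, at a pseudocount of 0.1, without mitochondrial genes in the sum, and without replicate 1. Leaving out libraries gave 0 to 1, and SALL4 was called without the block when replicate 1 was left out. With the block the count was 0 without replicate 2 or 3 (SALL4 limma adjusted p = 0.137 and 0.478) and under the summed FPKM (0.757). SALL4 stayed higher in each setting run, by 0.07 to 0.67, and its adjusted p without the block was 0.0103 without replicate 1 and otherwise 0.0615 to 1. KLF4 was -0.43 when scaled to the summed FPKM, ranged from -0.26 to 0.24 when libraries were left out, and was 0.061 (0.128 FPKM) when mitochondrial genes were left out of the sum, with the block too, and 0.020 with the block without replicate 2. On the deposited scale EZH2, NRAS, PMEL, PDGFRB and KRT17 were also called with the block and not without it; it changed no other call of a gene named from the lists. Scaling to the summed FPKM called NRAS (-1.03), HMGA1 (-1.02) and KLF16 (-0.69) without the block, among the 1304 genes it called lower, and took EZH2 to 0.17.

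Scaling to the summed FPKM turned the sign of DNMT3B (-0.065), TBX3 (-0.078), MTA2 (-0.32), HDAC1 (-0.40), PODXL (-0.44), DROSHA (-0.48), TARBP2 (-0.48) and RBBP7 (-0.49). Without mitochondrial genes in the sum it turned that of CCND1 (0.013), KDM1A (0.040), YY1 (0.051), SOX4 (0.063) and KLF5 (0.095). Quantile normalisation gave DROSHA -0.0059, TARBP2 -0.020 and KLF5 0.022, and voom DROSHA -0.018, TARBP2 -0.020 and RBBP7 -0.010. When 1 library was left out, the change ranged from -0.53 to 0.27 for CCND1, -0.056 to 0.11 for DROSHA, -0.26 to 0.29 for KLF5, -0.034 to 0.20 for PODXL, -0.024 to 0.070 for RBBP7, -0.11 to 0.036 for SOX4, -0.19 to 0.12 for TARBP2 and -0.12 to 0.021 for YY1. None of the genes whose sign turned was called in the fit with or without the block on the deposited scale. For the 8 members at 5 fragments or fewer, depth limits any comparison.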

Other observations

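DPPA2 is usually described together with its neighbour and binding partner DPPA4, and the 2 differed here. DPPA4 had 1 fragment over the 6 libraries, against 917 for DPPA2, and the fractions overlapped for both. TERT, the catalytic subunit of telomerase, averaged 1.94 ± 1.07 FPKM in the positive and 2.02 ± 1.03 FPKM in the negative fraction (SD, n = 3), with the replicate 1 library lowest in both fractions, at 0.918 and 0.841 FPKM.

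Among genes with several let-7 seed matches, TRIM71 (6 matches) had 6 fragments and HMGA2 (4 matches) had 12 over all libraries. IGF2BP1, also with 4 matches, had a mean of 8.42 FPKM. Host transcripts of let-7 genes were low in both fractions. MIRLET7BHG measured 1.00 ± 0.313 and 0.941 ± 0.291 FPKM and MIRLET7A1HG 0.619 ± 0.327 and 0.299 ± 0.0798 FPKM in CD20-positive and CD20-negative cells (SD, n = 3; exact permutation tests, p = 0.8 and 0.2).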
